A study of Mus musculus with 5 samples.

Results

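The hedgehog ligands, the proteins that finish and release them, the co-receptors that help receive them and the signal transducer Smoothened were described here through 9 genes, taken by symbol from the deposited expression table: Shh, Ihh, Dhh, Hhat, Disp1, Boc, Cdon, Gas1 and Smo. All 9 were among the 17739 genes of the table. RNA-seq libraries came from tumours in the cerebellum of mice carrying Math1-Cre and the Gli2A allele, which received doxycycline chow from conception (embryonic day 0). The labels call GLI2 active in these animals. Math1 (Atoh1) is a gene of granule neuron progenitors, so Cre is directed to that lineage. Tumour tissue was dissociated with papain and lysed for RNA without a sorting step being named. All 5 libraries (tumours 1, 5, 8, 14 and 15) formed 1 group, with no untreated, normal or Cre-negative samples. The labels give neither the age of the mice nor whether each tumour number is a separate animal. Standard deviations therefore measure the spread between these libraries, which may be technical in part. The p-values do not measure that spread. Each concerns the difference of a pair of genes over these libraries and takes its minimum whenever the sign is the same in all 5.

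Hedgehog ligands are secreted proteins that carry a cholesterol group at one end and a fatty acid, added by the Hhat acyltransferase, at the other, and Disp1 exports them from the producing cell. On the receiving cell the ligand binds Patched together with the co-receptors Boc, Cdon or Gas1, and Patched then ceases to restrain Smoothened, a membrane protein that signals from the primary cilium to the GLI transcription factors. In the developing cerebellum Purkinje cells are the known source of Sonic hedgehog, and granule neuron progenitors answer it by dividing. GLI2 acts downstream of Smoothened.

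Listed markers of the granule lineage other than Atoh1 were high in every library. All 8 listed markers of this lineage were in the table, from Zic1 (15.08 ± 0.05 on the log2 scale, SD, n = 5) to Atoh1 (8.62 ± 0.67). Column medians of all genes lay between 8.51 and 8.58. Atoh1 was below these medians in tumours 1, 5 and 8 (8.00, 8.17 and 8.27) and ranged 2.81-fold. The deposited values are log2-scale expression values scaled for library size, with no correction for length, read here as regularised-log values, in which differences at weakly expressed genes are pulled towards 0. Read depth is unknown. In bulk RNA of this kind, fewer cells of a type and less RNA per cell cannot be told apart.

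To show the DNA next to the genes described, the 250 bases upstream of the RefSeq start (GRCm38.p6) are printed for Smo and Gas1, the members of highest length-adjusted level that the promoter table holds. RefSeq promoters were matched for 7 of the 9 genes, and Shh and Boc are named only. The sequences were searched on both strands for the GLI-binding consensus TGGGTGGTC and for the letters GGGTGG inside it, and capitals mark the shorter match, here read on the opposite strand.
Smo, chr6:29735247-29735496, plus strand: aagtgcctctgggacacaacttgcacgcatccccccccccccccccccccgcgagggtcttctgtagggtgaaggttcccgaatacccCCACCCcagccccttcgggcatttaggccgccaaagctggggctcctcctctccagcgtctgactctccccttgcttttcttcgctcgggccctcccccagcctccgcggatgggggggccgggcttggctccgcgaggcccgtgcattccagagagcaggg
Gas1, chr13:60177536-60177785, minus strand: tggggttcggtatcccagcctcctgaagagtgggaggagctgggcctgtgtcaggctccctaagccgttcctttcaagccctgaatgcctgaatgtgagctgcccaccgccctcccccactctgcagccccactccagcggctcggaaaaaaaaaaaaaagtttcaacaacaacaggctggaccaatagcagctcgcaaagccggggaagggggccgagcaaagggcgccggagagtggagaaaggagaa
The full consensus occurred in 0 of 8 member promoters (Disp1 has several starts) and in 0.225% of the 32851 mouse promoters of that table. The shorter letters occurred in 3 of 8, those of Ihh, Smo and Dhh, against 28.1% of all promoters. These are matches of letters in a short window and were not related to expression.

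Among the ligands, Shh had the highest length-adjusted level and all of them were weak. Shh, which encodes Sonic hedgehog (GRCm38 chromosome 5, 28456815 to 28467256, minus strand, protein coding), had values of 4.23 in tumour 1, 4.26 in tumour 5, 4.43 in tumour 8, 4.44 in tumour 14 and 4.62 in tumour 15. Its mean was 4.39 ± 0.16 (SD, n = 5), above that of 19.6% of all genes in the table, and the highest and lowest tumours were 1.31-fold apart. Tumours 1 and 5 were low and tumour 15 was high. Ihh, the Indian hedgehog ligand best known from growing bone (chromosome 1, 74945315 to 74951672), had values of 2.88 in tumour 1, 3.02 in tumour 5, 3.06 in tumour 8, 3.28 in tumour 14 and 3.02 in tumour 15. Only tumour 14 stood above a narrow band, and the mean of 3.05 ± 0.14 exceeded that of 12.4% of genes. Dhh, the Desert hedgehog ligand of Schwann and Sertoli cells (chromosome 15, 98891152 to 98898540), lay between 1.89 in tumour 5 and 1.94 in tumour 14, with a mean of 1.92 ± 0.02. That level exceeded 6.84% of genes. At such values the transformation leaves little room for a difference to show, so the even level of Dhh does not show that the tumours were alike.

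Reads of the ligand genes can be hard to assign. Of the exonic bases of Shh, 15.7% are also exonic in the antisense gene 9530036O11Rik and 12.7% in the antisense gene Gm26894. Values for 9530036O11Rik lay between 0.76 and 0.82, and Gm26894 was not used here. For Dhh, 12.4% of exonic bases are shared with Rhebl1 on the same strand, whose own values averaged 7.79 ± 0.12 (SD, n = 5), and 25.2% with the antisense gene Gm49442. Libraries were strand-specific per the labels, but the strand setting of the counting and the handling of shared bases were not given in the labels. Ihh shared no stretch of 50 bases with transcripts of any other gene, and no such stretch was common to any of the ligands.

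Purkinje cell markers were examined beside Shh because these cells are its known source. All 10 listed markers were in the table, with list medians between 7.21 and 7.70 and summed levels between 11.52 and 11.74 on the log2 scale. None was at 0, but neither was any gene of the table (lowest value 0.33), so this does not show that the cells were present. The weakest was Skor2, a transcription factor gene of young Purkinje cells (3.61 ± 0.04, SD, n = 5), and the strongest was Itpr1, a calcium release channel gene that is not confined to these cells (9.97 ± 0.17). Pcp2, a gene typical of Purkinje cells, had values of 6.60 in tumour 1, 7.27 in tumour 5, 6.79 in tumour 8, 6.67 in tumour 14 and 6.58 in tumour 15. Of the 10 markers 7 were highest in tumour 5 (Pcp2, Pcp4, Calb1, Car8, Ppp1r17, Rora and Slc1a6), a position held by 25.3% of all genes. Calb1, a calcium buffer, ranged from 6.19 in tumour 1 to 7.25 in tumour 5, and Pcp4 from 7.97 in tumour 1 to 9.22 in tumour 5. Shh had its next to lowest value in tumour 5 and its highest in tumour 15. Foxp2 and Itpr1 were also highest in tumour 15, at 9.74 and 10.20. So was the summed level of the markers (11.74, with tumour 5 almost equal), in which these same genes weigh most. Foxp2 was lowest in tumour 5 (8.81). Other markers went the other way: Pcp2 and, by a very small margin, Skor2 (3.57) were lowest in tumour 15. The list median was 7.23 in tumour 15 and 7.70 in tumour 5. The part of Purkinje cell content in the Shh values was not tested.

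**Figure D1:**
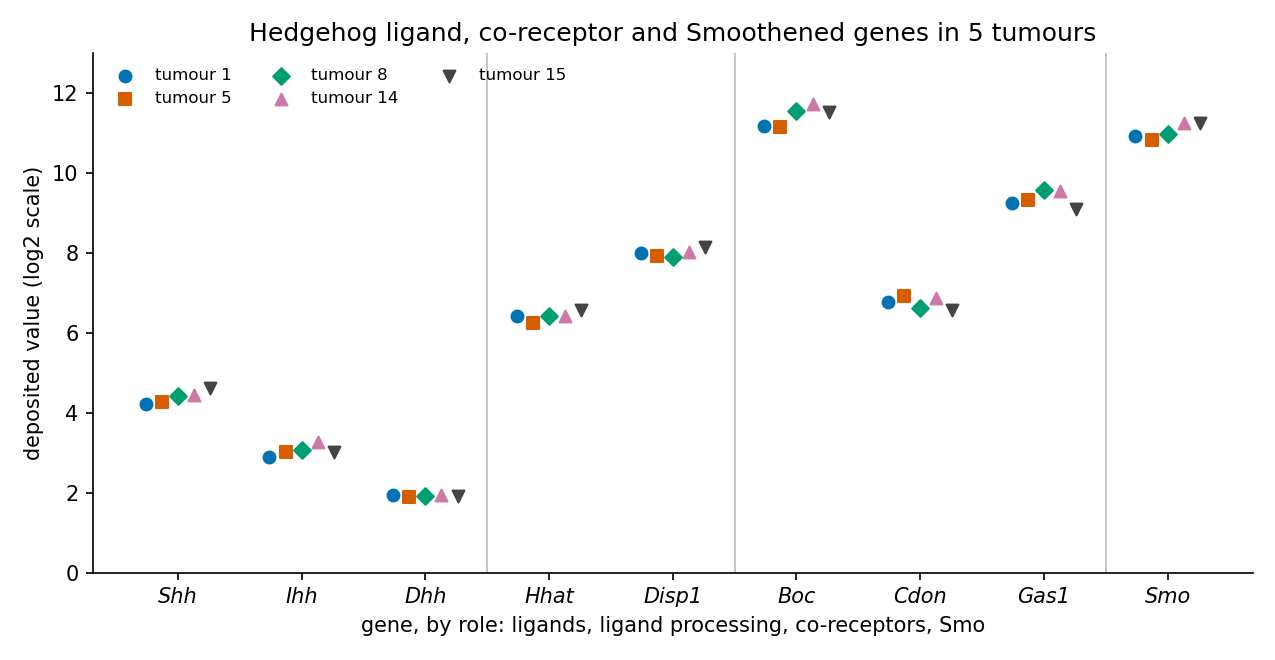
Deposited expression values (log2 scale, vertical axis) of the 9 genes in each of the 5 tumours, with 1 point per tumour and genes ordered by role. The ligands lie between 1.89 and 4.62, whereas Boc and Smo lie between 10.8 and 11.7 in every tumour.

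The genes that finish and release the ligand had higher length-adjusted levels than the ligands. Hhat (chromosome 1, 192496711 to 192771223) had values of 6.41 in tumour 1, 6.26 in tumour 5, 6.42 in tumour 8, 6.42 in tumour 14 and 6.58 in tumour 15. Tumours 1, 8 and 14 were nearly equal, with tumour 5 below and tumour 15 above them. The mean was 6.42 ± 0.11 (SD, n = 5). Of the 50-base stretches of Hhat, 2.38% also occurred in transcripts of other genes. Disp1 (chromosome 1, 183086266 to 183221522) had values of 7.99 in tumour 1, 7.92 in tumour 5, 7.89 in tumour 8, 8.03 in tumour 14 and 8.14 in tumour 15. Its mean was 7.99 ± 0.10 and its whole range 1.19-fold, again with tumour 15 at the top. Shh, Hhat and Disp1 were thus all highest in tumour 15, together with Smo (barely above tumour 14), making 4 of the 9 genes, and 21.9% of all genes had their highest value there. With only 9 genes, this count is no result about them.

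Other genes of ligand handling, taken from a fixed list of 7, spanned a wide range. On the length-adjusted scale (log2 value minus log2 of exonic kilobases), Disp2, a relative of Disp1, was highest at 7.59 and Scube2 lowest at 2.77. Scube proteins carry the lipid-modified ligand away from the cell. Scube1 varied most, with values of 8.57 in tumour 1, 6.95 in tumour 5, 7.66 in tumour 8, 7.14 in tumour 14 and 8.09 in tumour 15. Its 3.07-fold range exceeded that of every one of the 9 genes. Hhatl, a relative of Hhat, averaged 4.53 ± 0.24 (SD, n = 5).

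The co-receptors stood far apart in level. Boc (chromosome 16, 44485049 to 44558897), an immunoglobulin-family co-receptor of granule neuron progenitors, had values of 11.18 in tumour 1, 11.16 in tumour 5, 11.56 in tumour 8, 11.71 in tumour 14 and 11.51 in tumour 15. Tumours 1 and 5 formed a lower pair and the other 3 lay clearly above them. The mean was 11.42 ± 0.25 (SD, n = 5), above 89.5% of genes. Cdon, the closest relative of Boc (chromosome 9, 35421128 to 35507652), had values of 6.77 in tumour 1, 6.93 in tumour 5, 6.61 in tumour 8, 6.86 in tumour 14 and 6.58 in tumour 15. Here tumour 5 was highest and tumours 8 and 15 were low, and the mean was 6.75 ± 0.15. Gas1 (chromosome 13, 60174405 to 60177365), a membrane-anchored co-receptor encoded by a single exon, had values of 9.26 in tumour 1, 9.33 in tumour 5, 9.58 in tumour 8, 9.56 in tumour 14 and 9.10 in tumour 15. Tumours 8 and 14 were high and tumour 15 was low, around a mean of 9.36 ± 0.20. The order of the tumours thus differed among the co-receptors, and no tumour was highest or lowest in all 3.

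Boc exceeded Cdon in every tumour, by 5.47 ± 0.33 on the length-adjusted log2 scale (SD, n = 5), a 44.2-fold difference (exact two-sided sign-flip permutation test, p = 0.063, adjusted p = 0.063 over 36 pairs). Boc also exceeded Gas1 in 5 of 5 tumours, by 1.47 ± 0.23 (exact sign-flip test by permutation, p = 0.063), and Gas1 exceeded Cdon in 5 of 5, by 3.995 ± 0.23 (exact sign-flip test by permutation, p = 0.063). With 5 libraries 0.063 is the smallest p that this test can give, so no pair could pass 0.05. Boc and Cdon shared no stretch of 50 bases with each other or with any other gene. Of the exonic bases of Gas1, 19.9% are overlapped by the antisense gene Gm48488, which was not used here.

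Smo (chromosome 6, 29735503 to 29761365) was expressed nearly as highly as Boc. Its values were 10.92 in tumour 1, 10.82 in tumour 5, 10.97 in tumour 8, 11.25 in tumour 14 and 11.25 in tumour 15, with a mean of 11.04 ± 0.20 (SD, n = 5), above 85.4% of genes. Tumours 14 and 15 were level with each other and above the other 3. Of its 50-base stretches, 1.56% also occurred in Gm4066. With summed exons as length, Boc exceeded Smo by 0.72 ± 0.14 on the length-adjusted log2 scale, higher in all 5 tumours (exact sign-flip test by permutation, p = 0.063). Smo exceeded Gas1 by 0.76 ± 0.29 in 5 of 5 (exact sign-flip test by permutation, p = 0.063), from 0.47 in tumour 8 to 1.23 in tumour 15. With the longest transcript as length these differences were 0.14 ± 0.14 and 1.33 ± 0.29, still above 0 in 5 of 5 tumours.

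Placed in order of length-adjusted level, the 9 genes ran from Boc (9.27), Smo (8.55), Gas1 (7.80), Disp1 (5.61), Cdon (3.80), Hhat (3.22), Shh (2.89) and Ihh (1.45) to Dhh (-0.22). Each of the 8 neighbouring pairs, and each of all 36 pairs, kept its sign in 5 of 5 tumours. With this length, neighbours were closest at Hhat and Shh, which were 0.34 ± 0.09 apart (SD, n = 5), and at Cdon and Hhat, 0.58 ± 0.26 apart. The place of Hhat depends on the gene model: its annotated exons add up to 9.15 kb, but its longest transcript is 3.25 kb. With the longest transcript as length, Cdon minus Hhat was -0.88 ± 0.26 and below 0 in every tumour, so the order of these neighbours is set by the length used. Hhat then stood 1.83 above Shh, and the closest neighbours were Boc and Smo, 0.14 ± 0.14 apart. The step from Gas1 down to Disp1 was 2.19 ± 0.28 and that from Disp1 to Cdon 1.81 ± 0.21, each several times its spread. Shh exceeded Ihh by 1.44 ± 0.16 and Ihh exceeded Dhh by 1.66 ± 0.14.

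**Figure D2:**
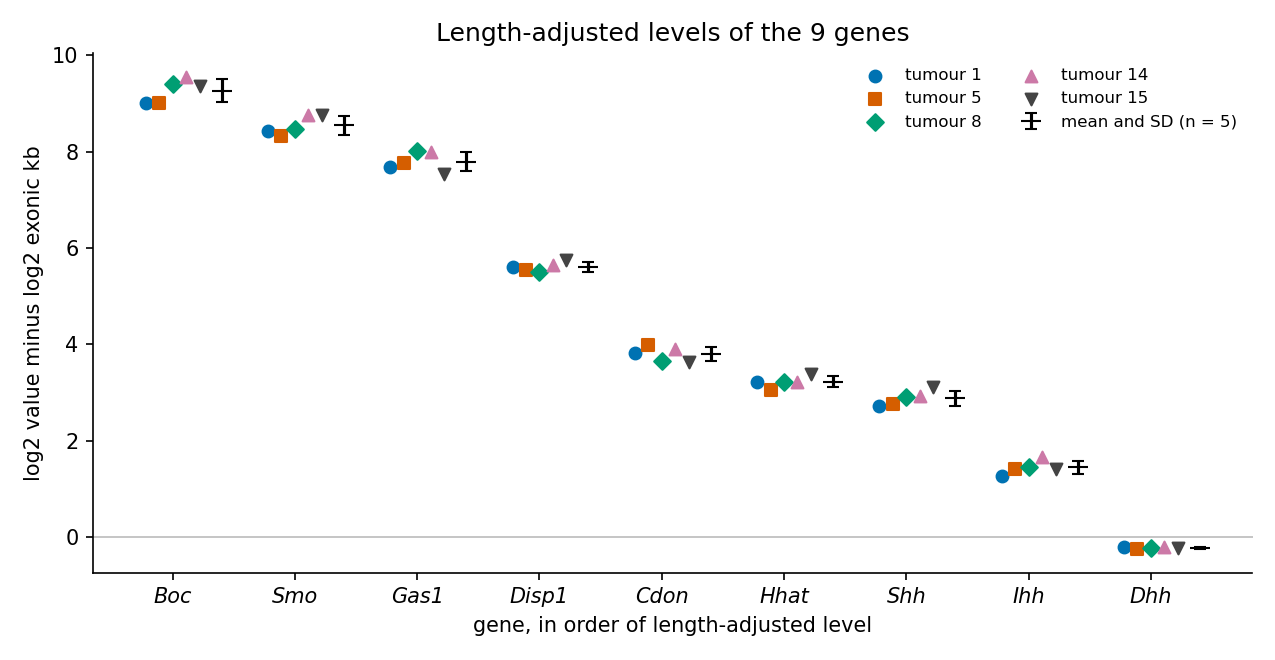
Length-adjusted level (log2 value minus log2 of exonic kilobases, vertical axis) of the 9 genes in descending order, with 1 point per tumour and a bar for mean and SD (n = 5). Boc, Smo and Gas1 lie above 7.5 in every tumour, and all ligands lie below 3.2.

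Spread between tumours was small for all 9 genes. The range from lowest to highest tumour exceeded 2-fold for 0 of the 9, against 3.07% of all genes, and for 0 of the 6 with a mean of at least 5, against 3.79% of such genes. It ran from 1.03-fold for Dhh to 1.47-fold for Boc. Against so low a background, a count of 0 is no result about these genes. Compared with genes of like level (means within 0.5), Boc and Smo were also on the variable side. The SD of Boc exceeded that of 94.9% of 1724 such genes, and the SD of Smo exceeded that of 90.5% of 2103. For Gas1 the share was 84.5% of 2600 genes and for Ihh 89.9% of 954. Shh (69.7% of 905) and Cdon (41.9% of 1256) were ordinary, Disp1 (33.3% of 1816) and Hhat (23.4% of 1153) were somewhat steady, and Dhh exceeded only 4.13% of 848.

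**Figure D3:**
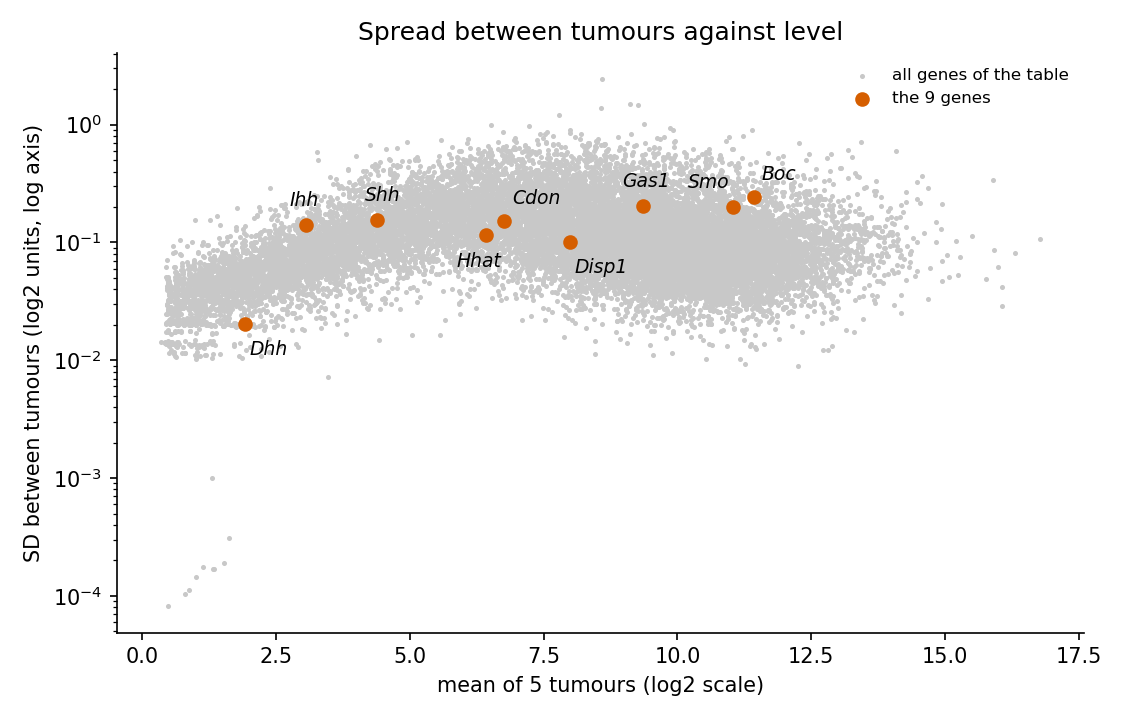
Standard deviation between the 5 tumours (log2 units, log axis) against mean value (log2 scale) for every gene of the table in grey and the 9 genes in orange. Boc, Smo and Gas1 sit in the upper part of the grey cloud at their level, and Dhh at its lower edge.

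Lowest values fell in tumour 5 for Boc, Smo, Hhat and Dhh, which is 4 of the 9 genes, where 22.4% of all genes had their lowest value. With only 9 genes, such a count is no result about them. Tumour 5 lay 0.38 below the median of the other tumours for Boc, 0.29 below for Smo and 0.16 below for Hhat. For Dhh the gap was 0.04. Cdon went the other way, 0.24 above. In tumour 14, Boc, Ihh and, by a very small margin, Dhh were highest (15.8% of all genes), and in tumour 8, Gas1 (17.9%). Cdon and Gas1 were lowest in tumour 15, where 22.8% of all genes were lowest, although Shh, Hhat, Disp1 and Smo were highest there. Shh and Ihh were lowest in tumour 1 (18.8%) and Disp1 in tumour 8 (22.2%). None of the 9 was highest in tumour 1 (19.1%) or lowest in tumour 14 (13.9%).

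**Figure D4:**
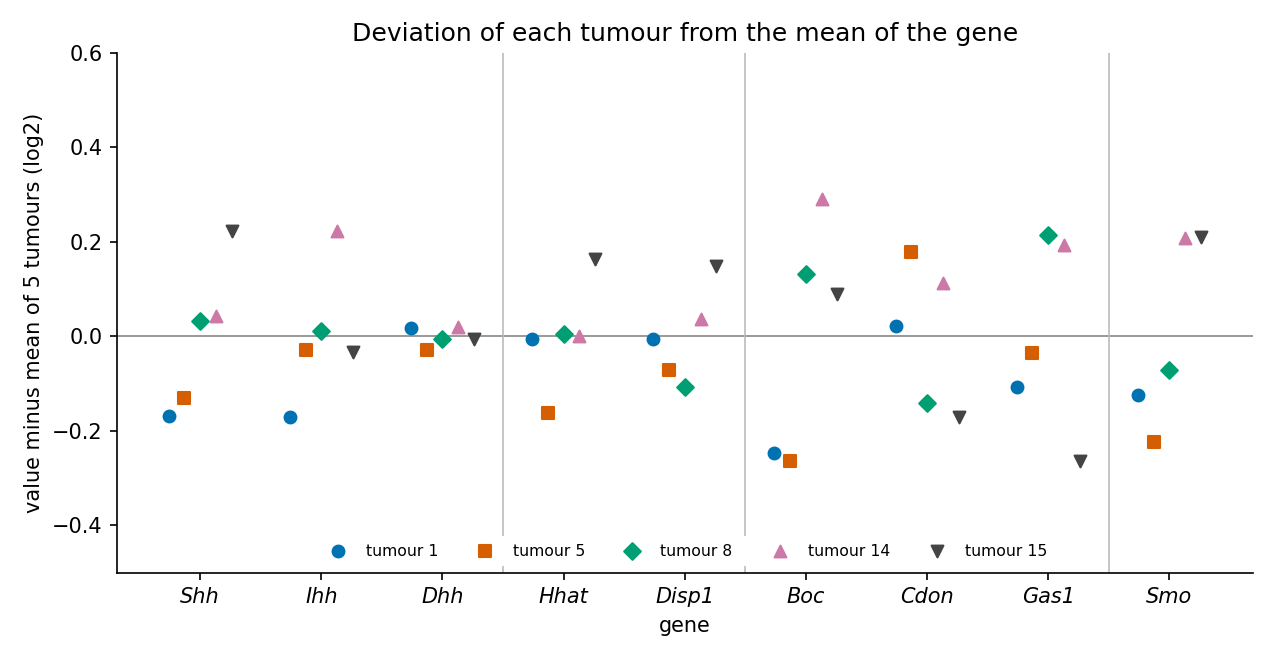
Deviation of each tumour from the mean of the gene (log2 units, vertical axis) for the 9 genes, with 1 point per tumour. Tumour 5 is lowest for Boc and Smo and highest for Cdon, and tumour 15 is highest for Smo and lowest for Gas1 and Cdon.

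Tumour 5 held the largest share of highest values among all genes (25.3%). Its share of lowest values (22.4%) was close to those of tumours 8 (22.2%) and 15 (22.8%). Of 7 hedgehog target genes examined, 6 had their lowest value in tumour 5 (Gli1, Ptch1, Hhip, Mycn, Ccnd1 and Sfrp1). The other, Ccnd2, was lowest in tumour 15. Hhip, a decoy receptor for the ligands, was 12.52 in tumour 1, 11.13 in tumour 5, 12.19 in tumour 8, 11.77 in tumour 14 and 12.23 in tumour 15. Boc and Hhip were therefore both lowest in tumour 5 but parted in tumour 1, where Boc was low and Hhip at its highest. All 7 oligodendrocyte markers (summed log2 levels from 14.48 to 15.86 over the tumours) and all 7 microglia and macrophage markers (12.52 to 13.36) were highest in tumour 5, as were 5 of 6 choroid plexus markers (13.31 to 14.85). Of the pericyte and fibroblast markers 5 of 7 were highest in tumour 15 (14.09 to 14.96), as were 21.9% of all genes. Gas1 and Cdon were lowest in that tumour. Schwann cell markers, examined beside Dhh, were all in the table (4 of 4, 11.47 to 11.68), from Prx (6.79 ± 0.13, SD, n = 5), a gene of peripheral myelin, to Sox10 (10.30 ± 0.24), which oligodendrocytes also express. Of the astrocyte markers 4 of 7 (14.87 to 15.31) and of the endothelial markers 5 of 7 (12.11 to 12.81) were highest in tumour 5. Oligodendrocyte precursor markers (13.86 to 14.41) were highest there for 0 of 5 and lowest for 3 of 5. No marker of these lists was at 0, which held for every gene of the table and so does not show that a cell type was present. The part of such cells in the values of the 9 genes was not tested.

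Among receptors and other proteins that bind the ligand at the cell surface, a list of 8, Gpc3 was highest per length at 10.84 and Lrp2 lowest at -0.15. Gpc3 is a glypican that competes with Patched for ligand, and Lrp2 is a large endocytic receptor. Ptch1, the main receptor, averaged 10.65 per length, above each of the 9 genes. Hhip (8.79) lay between Boc (9.27) and Smo (8.55). Gpc3 varied 3.61-fold, from 11.30 in tumour 5 to 13.16 in tumour 15. The extremes of Smo fell in the same tumours, at 10.82 and 11.25.

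The list of kinases, arrestins and cilium partners of Smoothened held 14 different genes, all in the table (Grk2 was listed under its older symbol too). Grk2, a kinase that phosphorylates active Smoothened, was highest per length at 9.49, and Evc2, which anchors Smoothened signalling at the base of the cilium, was lowest at 5.24. Evc2 had values of 7.89 in tumour 1, 7.17 in tumour 5, 7.80 in tumour 8, 7.65 in tumour 14 and 8.42 in tumour 15. Like Smo, it was lowest in tumour 5 and highest in tumour 15, with a 2.39-fold range against 1.35-fold for Smo. Its partner Evc ranged 2.04-fold between the same tumours.

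Downstream, Prkaca, the catalytic subunit of protein kinase A, was the highest of 9 listed transducers per length (10.27) and Gli3, the main GLI repressor, the lowest (3.44) and the most variable (SD 0.27). Gli2 averaged 8.61 per length, next to Smo at 8.55. All libraries carry the Gli2A allele, and its part in the Gli2 value was not tested. Across the 42 different pathway genes outside the 9, the median of means was 10.88 and 5 ranged over 2-fold (Scube1, Hhip, Gpc3, Evc and Evc2). Such a range was seen for 3.07% of all genes and 3.79% of those with a mean of at least 5. Per length, the target list ran from Hhip (8.79) to Sfrp1 (11.70), a secreted WNT modulator, so that only Boc and none of the other 8 genes reached into that range. Ccnd2 (11.04), Ccnd1 (10.94), Mycn (10.52) and Gli1 (9.94) lay between.

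**Figure D5:**
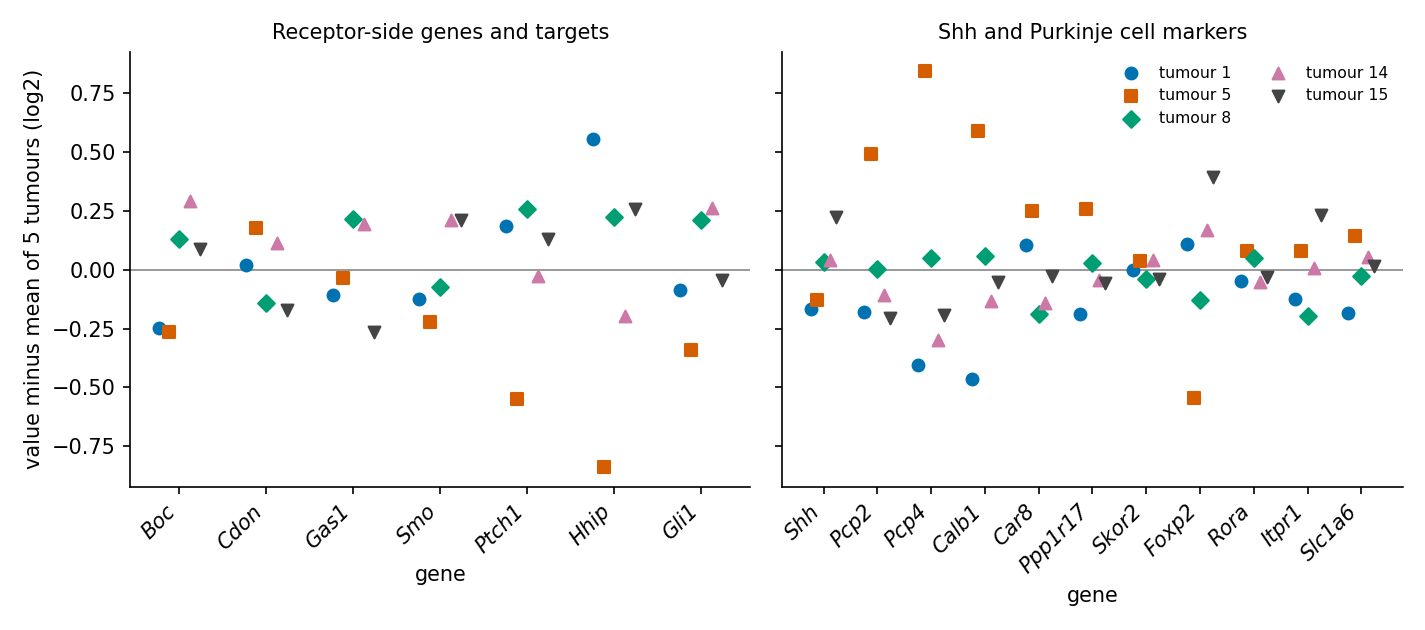
Deviation of each tumour from the mean of the gene (log2 units, vertical axis), on the left for the co-receptors, Smo and 3 target genes and on the right for Shh and 10 Purkinje cell markers. Tumour 5 is lowest for Boc, Smo and the 3 targets, while 7 of the Purkinje cell markers are highest in tumour 5 and Shh is highest in tumour 15.

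The genes whose pattern over the 5 tumours was nearest to each of the 6 members with a mean of at least 5 were found by the mean absolute difference of centred values. For Boc these were Neil3 (0.03 log2 units), a DNA glycosylase gene of dividing cells, Ebf2 (0.05) and Nr3c2 (0.06), among 5958 candidates with an SD of at least 50% of that of Boc. Neil3 had values of 9.27 in tumour 1, 9.28 in tumour 5, 9.66 in tumour 8, 9.77 in tumour 14 and 9.56 in tumour 15, the same lower pair as Boc. For Gas1 they were Nkd1 (0.03), an inhibitor of WNT signalling, Slc41a1 (0.03) and Adamts1 (0.04), among 7409. For Smo they were Gm14853 (0.03), Camkv (0.03) and Knstrn (0.03), among 7580, and for Cdon Rbm12b1, Epb41l1 and Hectd4 (0.03 each), among 9694. Disp1 was nearest to Scly, Npas3 and Hnrnpa2b1 (0.01 each, among 12183) and Hhat to the ribosomal protein genes Rpl32 and Rpl12 and to Npr2 (0.01 each, among 11558). With only 5 tumours and so many candidates, near matches are easily found, and none of these 6 genes was among the 3 nearest of another. Shh, Ihh and Dhh were below the mean of 5 and were not examined.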

How the data were processed

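Per the labels, strand-specific mRNA libraries were made from 5 tumours of 1 group. Per the submitters' processing notes, STAR 2.4.1, featureCounts from Subread 1.4.6 and DESeq2 were used, with the builds mm10 and GRCm38. The deposited log2 values were used as given. That they are regularised-log values is read from the short table name in the labels. Of 7 columns in the table, 2 could be tied to no labelled sample and were left out throughout. Read counts were not used here, so no count model was fitted and no counting interval is given.

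Gene models came from GENCODE M21 (GRCm38), where 97.5% of symbols matched exactly 1 gene. Length-adjusted levels subtract log2 of the summed exon length in kilobases. Differences of all 36 pairs of members were taken within each tumour and tested by an exact two-sided sign-flip permutation over 32 sign patterns, with Benjamini-Hochberg adjustment. Ranges and extremes were counted without a test. Named genes were the 9 members, the highest and lowest per length and the most variable of each pathway list, hedgehog targets, Purkinje cell markers, the highest and lowest of other marker lists, and the 3 genes nearest to each member of a mean of at least 5. The members and lists were chosen with earlier results of these data known. A few genes of the lists are not reported here and were left out of them. Alternatives were other lengths, centring, filters on low values and leaving out each tumour. The steps were tested on simulated data. Software was numpy 2.4.6, scipy 1.17.1 and pandas 2.3.3 under Python 3.11.15.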

Additional observations from a re-analysis of the deposited data

Results flagged for a closer look

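The difference of Hhat minus Shh on the length-adjusted log2 scale was 0.50 in tumour 1 and between 0.28 and 0.31 in the other 4 tumours. The gap of tumour 1 to its nearest neighbour was 0.85 of the whole range, above the critical value of 0.71 for 5 samples. Of 17 results examined in this way, this 1 was flagged, and chance flags about 1 in 20. Shh was lowest in tumour 1 (4.23), whereas Hhat (6.41) was near its mean there.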

How the results depend on the processing

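Each of the 36 pairs had 1 sign across all tumours with the longest or the longest protein-coding transcript as length. The second of these lengths was chosen after seeing the data, and the sign was not always that of the reported value. The count was also 36 with columns centred on their medians and without each tumour in turn (36 to 36). Neither could change it: centring cancels within a tumour, and a sign shared by all tumours holds in any part of them. Without length subtracted the count was 35: Cdon minus Hhat fell to 0.33, positive in 4 of 5 (exact sign-flip test by permutation, p = 0.125). That difference reversed to -0.88 with the longest transcript and to -1.07 with the longest protein-coding transcript, because the annotated exons of Hhat exceed its transcripts in length. The other named pairs kept their direction in every alternative run, but some sizes moved. With the longest transcript and with no length subtracted, Boc minus Smo was 0.14 and 0.38 (reported 0.72), Hhat minus Shh 1.83 and 2.02 (0.34), and Smo minus Gas1 1.33 and 1.68 (0.76). The count of members ranging over 2-fold was 0 under every alternative. Leaving out a tumour or the weak members cannot raise a count of 0, so those runs were no check. Members lowest in a single tumour numbered 4 to 5 when each tumour was left out, in tumour 5 except when that tumour was left out, when 5 were lowest in tumour 1. All 63 recomputed member means moved by less than 1 SD. By arithmetic, centring, a median or leaving out 1 tumour could not move them further, so this is no check. Without a filter on low values, 15 of the 18 nearest genes were kept. Depth is unknown, and the values of Dhh, Ihh and Shh are low enough for the transformation to understate differences. No paired comparison of conditions was possible because all samples belong to 1 group.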
